A study of Homo sapiens with 20 samples.

Results

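The 7 genes ANO9, CDH4, CSNK1D, LRSAM1, MAMDC2, PSD4 and SH3PXD2A each held at least 1 region with an m6A peak in every T24 library and in no T24R2 library, together with at least 1 region showing the reverse pattern. They were chosen by this presence or absence of peaks in the same libraries. The contrast between the lines within these genes is therefore described here and carries no test. All merged regions with a peak summit inside the gene body, exons and introns together, were taken, which gave 98 of 43676 regions in 7 of the 16561 genes that had any region.

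MeRIP-seq was performed on T24, a human bladder cancer cell line sensitive to cisplatin, and on T24R2, a resistant line obtained from T24 by serial exposure to the drug and kept in it. Both lines carry the label WT for genotype and Day 3 for time. T24R2 is 1 derived line, so resistance and any other feature of that line cannot be told apart. Each line had 5 immunoprecipitated (IP) libraries made with an anti-m6A antibody and 5 input libraries, 20 samples in all, and a peak list was analysed for each of the 10 IP libraries. A list held 17203 to 22901 peaks in T24 and 22671 to 33120 peaks in T24R2. Read depth is unknown from such lists, and they give no expression level, so bladder markers were not checked and RNA levels of the 7 genes were not analysed here. In a peak list, less methylation and less RNA to call a peak from cannot be told apart.

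N6-methyladenosine (m6A) is placed on nascent RNA by a methyltransferase complex built around METTL3 and METTL14, most often at a short motif called DRACH. In mature mRNA it is concentrated in long internal exons and around the stop codon and 3′UTR, where reader proteins of the YTH family bind it and affect splicing, export, translation and decay. A gene with peaks at different places in different cells can therefore differ in the sites methylated, or in which starts, ends, exons and introns its RNA contains, and a peak list does not separate these.

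A region was called T24-only when all 5 T24 libraries and 0 of 5 T24R2 libraries had a peak in it, and T24R2-only in the reverse case. Over all regions 457 were T24-only, a share of 1.05%, and 1320 were T24R2-only, a share of 3.02%. The 7 genes held 11 T24-only and 13 T24R2-only regions among their 98, counts that the choice of genes fixes from below. Among 10307 genes with at least 2 regions, 12 held both kinds, a share of 0.116%. The other 5 were FAR2, OPA3, SLC16A3, SMC5-DT and ENSG00000280029, none with an exonic region in both directions, and they are named here after their values were seen. SLC16A3, which encodes a lactate transporter, overlaps CSNK1D and holds the same 4 line-specific regions, and the noncoding SMC5-DT is antisense to MAMDC2 and holds the same 2.

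The sequences under the summits are shown first because the antibody signal is read against DRACH, in which D stands for any base but C, R for A or G, and H for any base but G. The motif was searched on the gene's own strand within 50 bases on each side of the strongest summit of each region. Here and below the strongest summit is that of the peak with the lowest q-value. It was found in 9 of 11 T24-only and 10 of 13 T24R2-only regions of the 7 genes, against 88.0% of all 33306 regions whose strongest summit lay in genes of 1 strand. The regions of the 7 genes were not limited in this way, so the shares are not over like sets. Those without a match were in ANO9, CSNK1D and MAMDC2, and in CSNK1D and MAMDC2 they overlap genes of the opposite strand. On the opposite strand of the same windows the motif was found in 18 of the 24, against 73.2% of the 33306 regions, so the short motif is common on either strand. For ANO9, CDH4, CSNK1D, PSD4 and SH3PXD2A the region with the motif nearest its summit is printed in each direction, and for LRSAM1 in the T24R2-only direction, 5′ to 3′ on the gene's strand from hg38, with the DRACH match in capitals. The T24R2-only region of MAMDC2 had no match.
ANO9 T24-only, chr11:418113-418137, minus strand: ggcacccacaGAACTgggagtgagg
ANO9 T24R2-only, chr11:440894-440918, minus strand: ccttcaaaaaAGACAgttgcagccg
CDH4 T24-only, chr20:61409246-61409270, plus strand: gccatcaaatAAACCtcaaagcagc
CDH4 T24R2-only, chr20:61927163-61927187, plus strand: gcctcagtcaAAACAcgtggttgtt
CSNK1D T24-only, chr17:82241668-82241692, minus strand: ttgctgccccAGACTgagacaccgt
CSNK1D T24R2-only, chr17:82254367-82254391, minus strand: gcggctcagcTGACTggcttctcga
LRSAM1 T24R2-only, chr9:127497092-127497116, plus strand: tgcctcatccTGACCgtgggccccg
PSD4 T24-only, chr2:113182950-113182974, plus strand: tgtgtgtcctAGACCtggaggagga
PSD4 T24R2-only, chr2:113202630-113202654, plus strand: tgggccggagGGACCagccaccatt
SH3PXD2A T24-only, chr10:103600604-103600628, minus strand: ttcaggagccAGACTtttggagaga
SH3PXD2A T24R2-only, chr10:103594970-103594994, minus strand: caaagagcagTGACCacaatgggtc

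In CDH4, LRSAM1, MAMDC2, PSD4 and SH3PXD2A every T24-only region lay 5′ of every T24R2-only region. CSNK1D had the reverse order, and in ANO9 the 2 kinds alternated. Of the other 5 genes with opposing regions, 3 had the T24-only regions 5′ and 2 had the reverse. The strand is not known from the peaks. Read on the antisense SMC5-DT the 2 regions of MAMDC2 are in the reverse order, and so are the 4 of CSNK1D read on SLC16A3. SMC5-DT and SLC16A3 are among the other 5 genes, so their orders repeat the same regions and are not further cases. By where most of their summits fell on the canonical transcript, the 11 T24-only regions were in introns for 6, coding exons for 2, 3′UTRs for 2 and past the annotated end for 1. The 13 T24R2-only regions were in introns for 11 and in 3′UTRs for 2. Exons of shorter or alternative transcripts covered some of the intronic summits. Counting any transcript of the gene, 7 T24-only and 4 T24R2-only regions had at least 1 summit in an exon. Over all line-specific regions 66.7% of T24-only and 56.8% of T24R2-only regions had a summit in an exon of any annotated gene, against 72.7% and 38.5% of those in the 7 genes.

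**Figure D1:**
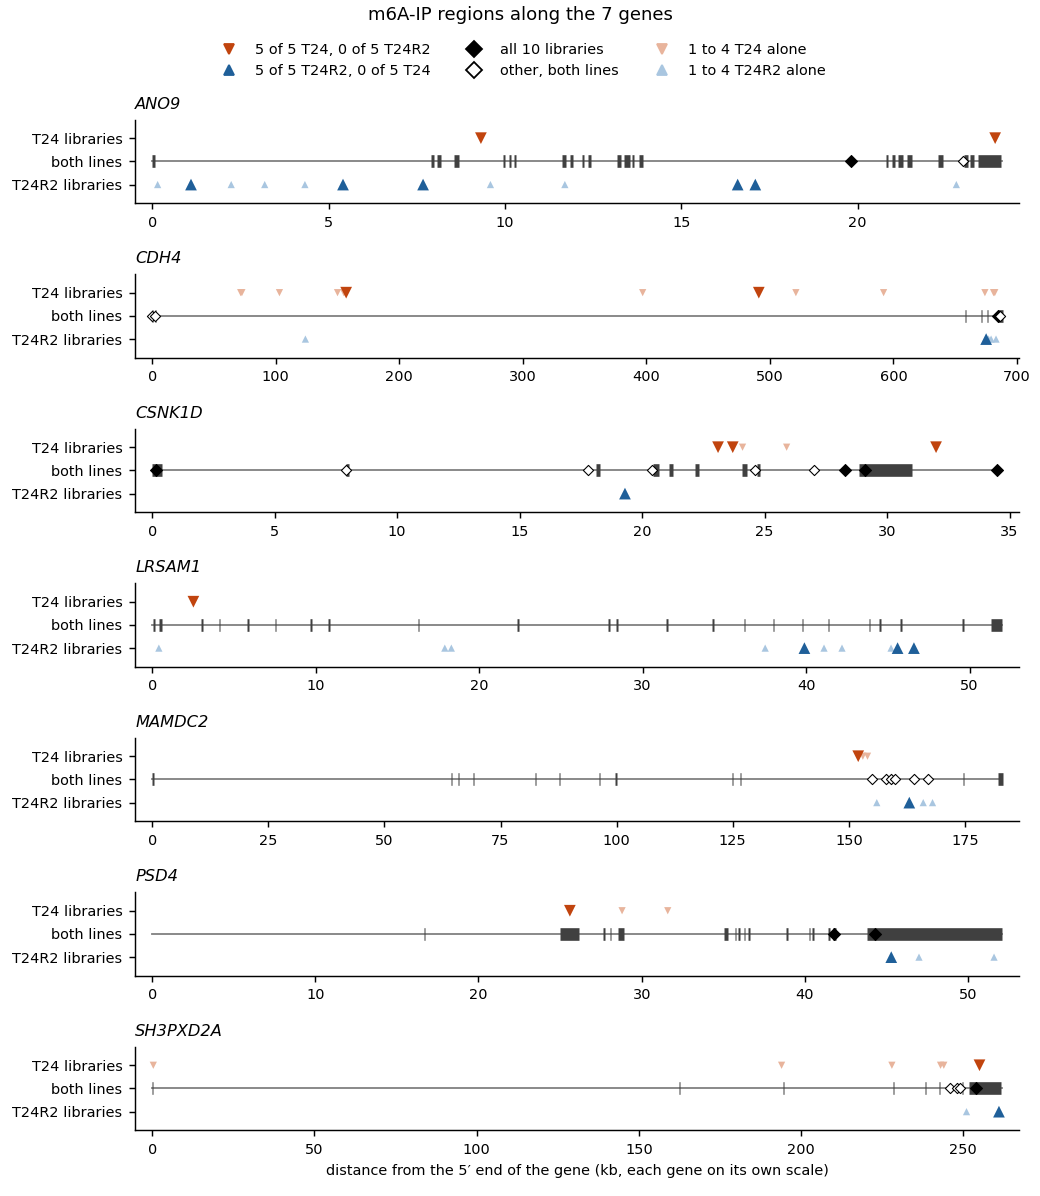
Regions with m6A-IP peaks along the 7 genes, drawn at the strongest summit in kb from the 5′ end of each gene, with canonical exons as dark blocks. Markers above the line are regions called in T24 libraries alone, markers below in T24R2 libraries alone, diamonds in both lines, and the large filled triangles are the 11 T24-only and 13 T24R2-only regions.

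Of the 98 regions, 34 had peaks in T24 libraries alone (34.7%, against 13.3% of all 43676 regions), 37 in T24R2 libraries alone (37.8% against 35.2%) and 27 in both lines (27.6% against 51.5%). The choice of genes for one-line regions bears on these shares. Of the 34 and 37 regions, 11 and 12 were called in a single library. Such regions were 23.5% of the 98, against 27.9% of all regions. All 10 libraries called 9 of the 98 regions (9.18%), against 21.9% of all regions. Of the 34, 12 had their main summit in a canonical exon, and of the 37, 5 did. The like shares over all regions called in one line were not computed, so these counts describe the 7 genes only. Just outside the limit were 12 regions with peaks in at least 4 libraries of one line and at most 1 of the other, 5 on the T24 side and 7 on the T24R2 side. Examples are PSD4 exon 5, called in 4 T24 libraries and 0 T24R2 libraries, and LRSAM1 intron 20, called in 0 and 4.

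PSD4 (EFA6B), a guanine nucleotide exchange factor for the small GTPase ARF6, showed the simplest exonic pair. The T24-only region lay in coding exon 2 at chr2:113182316-113183428. Fold enrichment over input was 5.38, 12.5, 11.4, 11.9 and 7.74 in T24 replicates 1 to 5. The peak in replicate 1 was at percentile 24.5 of the fold enrichments in its own list and the other 4 were at percentiles 63.7 to 90.2. Coding exon 5 carried the next region, called in 4 T24 libraries and 0 T24R2 libraries. No T24R2 library had a peak 5′ of intron 15 in this gene. Both lines then had peaks in all libraries at the exon 16 boundary (chr2:113198898-113199205) and around the stop codon in exon 17 (chr2:113201097-113202348). Mean percentiles there were 66.3 ± 17.2 in T24 libraries against 76.8 ± 19.7 in T24R2 libraries (SD, n = 5 each) at the first, and 66.3 ± 23.7 and 78.2 ± 25.5 at the second, with overlapping ranges. The T24R2-only region followed in the 3′UTR at chr2:113202512-113202908, with fold enrichments of 6.43, 6.55, 5.8, 7.78 and 4.98, and the nearest T24 peak was 407 bp away. Of 12 annotated transcripts, 3 spanned both line-specific summits, 2 the T24-only summit alone and 2 the T24R2-only summit alone. PSD4-209 ends 108 bases after the T24-only summit.

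SH3PXD2A, which encodes TKS5, the scaffold protein of podosomes and invadopodia, held both line-specific regions in the 3′UTR of exon 15. The T24-only region at chr10:103599987-103600738 adjoined a region called in all 10 libraries, and only 5 bp separated it from the nearest T24R2 peak there. Its fold enrichments were 9.58, 7.72, 10.0, 9.81 and 10.3 in the 5 T24 libraries, a narrow range. The shared region had a mean percentile of 92.0 ± 7.97 in T24 libraries against 68.1 ± 23.0 in T24R2 libraries (SD, n = 5 each), and the ranges overlapped. The T24R2-only region lay downstream at chr10:103594761-103595182, with fold enrichments of 11.9, 10.1, 10.3, 7.09 and 9.69. Its summit was 977 bases before the end of SH3PXD2A-202. Only SH3PXD2A-202 and SH3PXD2A-203, of 7 annotated transcripts, reach it, while 4 include the T24-only summit in an exon. SH3PXD2A-207 ends 331 bases past that summit. The 5 most 5′ regions had peaks in T24 libraries alone, 1 to 3 libraries each. The first of them was at the 5′ end and the other 4 lay at 74.3% to 93.3% of the gene's length. The 3 regions mainly in intron 13 were each called in 2 T24 and 5 T24R2 libraries. The strongest summit of the most 5′ of them also lay in an exon of ENSG00000273108 on the opposite strand, and peaks carry no strand.

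LRSAM1, an E3 ubiquitin ligase that acts on the endosomal sorting protein TSG101, had the strongest of the 11 T24-only regions by median fold enrichment. It lay near the gene start in intron 2, at chr9:127453761-127454335, with fold enrichments of 16.2, 11.7, 14.9, 16.1 and 12.8 at percentiles 87.2 to 93.8. It was the sole LRSAM1 peak in each T24 library. Its strongest summit was in an exon of LRSAM1-208 alone, 36 bases before the end of that transcript. Of the 5 summits of this region, 1 for each T24 library, only this 1 lay in an exon of any LRSAM1 transcript. T24R2 libraries had 3 to 12 peaks in the gene, in 10 regions without any T24 peak, 7 of them from intron 18 onward. Of the 10, 4 were called in a single library, and those in introns 10 and 18 came from T24R2 replicate 5, the longest list. The T24R2-only regions were at chr9:127491194-127492174 in exon and intron 20, with fold enrichments of 6.8 to 13.3, at chr9:127496870-127497550 in introns 23 and 24, with 4.63 to 7.26, and at chr9:127497806-127498537 in intron 24, with 4.39 to 9.98. No LRSAM1 region was shared by the lines. Of 43 annotated transcripts, 26 span both the intron 2 summit and the first of these, 2 the former alone and 13 the latter alone.

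CDH4 encodes R-cadherin, a classical cell-cell adhesion molecule, over 688 kb. T24 libraries had 9 to 12 peaks in the gene and T24R2 libraries 4 to 7, so the lines did not overlap in number, which held with T24 higher for 2.74% of genes with at least 2 regions. The T24-only regions were at chr20:61409110-61409797 in intron 2 and at chr20:61743472-61743743 at coding exon 3. In the latter 4 of 5 summits lay in exon 3, and the strongest lay in intron 2. Fold enrichment in the region at exon 3 was 2.82, 6.49, 7.48, 7.99 and 3.96, and the peak of T24 replicate 1 was at percentile 2.71 of its list. Coding exons 4, 5, 14 and 15 also had peaks in 1 to 3 T24 libraries and in 0 T24R2 libraries. In all, 14 regions had peaks in T24 alone, 5 of them with most summits in coding exons, and the 5 regions called in T24R2 alone were all intronic. The T24R2-only region was in intron 11 at chr20:61927078-61927366, with fold enrichments of 9.75, 9.15, 4.61, 9.38 and 5.53, and lay 945 bp from a T24 peak of the same intron. The region at the stop codon and 3′UTR, chr20:61936627-61937457, was called in all 10 libraries. Its percentile was 95.9 ± 3.59 in T24 libraries against 48.4 ± 12.3 in T24R2 libraries (SD, n = 5 each), with ranges of 89.7 to 98.9 and 36.6 to 64.9 that did not overlap. Of the 9 regions of the 7 genes called in all 10 libraries it was the sole one without overlap, and among all 9577 such regions every T24 library was above every T24R2 library in 0.867%.

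ANO9 (TMEM16J) belongs to the anoctamins, a family of calcium-activated ion channels and lipid scramblases. The numbers ran opposite to CDH4, with 3 to 6 peaks in T24 libraries and 10 to 14 in T24R2 libraries. Every T24R2 library was above every T24 library here and in LRSAM1, as in 7.7% of genes with at least 2 regions. Apart from that of replicate 2 (22671 peaks), the T24R2 lists were each longer than the longest T24 list (22901 peaks). The 7 genes were also chosen for peaks of one line. The 5 T24R2-only regions were intronic. They were at chr11:440448-441392 and chr11:436401-436724 in intron 1, chr11:433219-435071 over introns 1 and 3, and chr11:425236-425634 and chr11:424636-425071 in intron 15. Fold enrichment in the first was 11.3, 14.2, 6.35, 16.7 and 13.8. Over all 5 regions it ran from 4.86 to 17.8. The 2 T24-only regions were at chr11:432577-432932 in intron 4, where the alternative transcript ANO9-207 has an exon, and at chr11:417959-418230 in the 3′UTR of exon 23. The intron 4 region was weak, with fold enrichments of 3.41, 5.32, 5.98, 11.2 and 4.84, and was 44 bp from T24R2 peaks of an adjoining region called in 0 T24 and 4 T24R2 libraries. The 3′UTR region had 5.92, 7.82, 8.97, 16.8 and 4.95, again with T24 replicate 4 highest. All 10 libraries had peaks between them at chr11:419863-422786, at mean percentiles of 56.4 ± 25.2 in T24 libraries against 91.9 ± 9.69 in T24R2 libraries (SD, n = 5 each) with overlapping ranges.

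CSNK1D encodes casein kinase 1 delta, which phosphorylates PER proteins of the circadian clock. It was the gene with the T24R2-only region upstream, in intron 3 at chr17:82254217-82254470, where CSNK1D-222 has an exon. Fold enrichments there were 6.55, 5.64, 5.41, 6.45 and 6.33. The T24-only regions were at chr17:82250497-82250682 and chr17:82249778-82250317 in intron 6, with 5.65 to 6.98 and 4.65 to 9.12, and at chr17:82241586-82241873, past the end of the canonical transcript, with 3.67 to 7.94. The last was 519 bp from a T24R2 peak. All 4 regions lie in an intron of SLC16A3 on the opposite strand, and both intron 6 regions also lie in an exon of ENSG00000280407 on that strand. Peaks carry no strand, so the gene behind these regions is uncertain. Both lines had peaks throughout in 4 other regions, including the 5′UTR and the 3′UTR.

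MAMDC2, a secreted proteoglycan with MAM domains, had 13 regions, all in intron 11 and none in its exons. The T24-only region was the most 5′, at chr9:70195898-70196217, with fold enrichments of 12.0, 5.72, 6.98, 6.96 and 9.81. The T24R2-only region was at chr9:70206735-70206951, with 7.48, 8.72, 7.97, 5.95 and 9.39. Between and beyond them, 5 regions had a peak in each of the 5 T24R2 libraries and in 1 to 3 T24 libraries. Every one of the 13 also lies in an intron of the antisense transcript SMC5-DT, so here too the strand is not known.

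**Figure D2:**
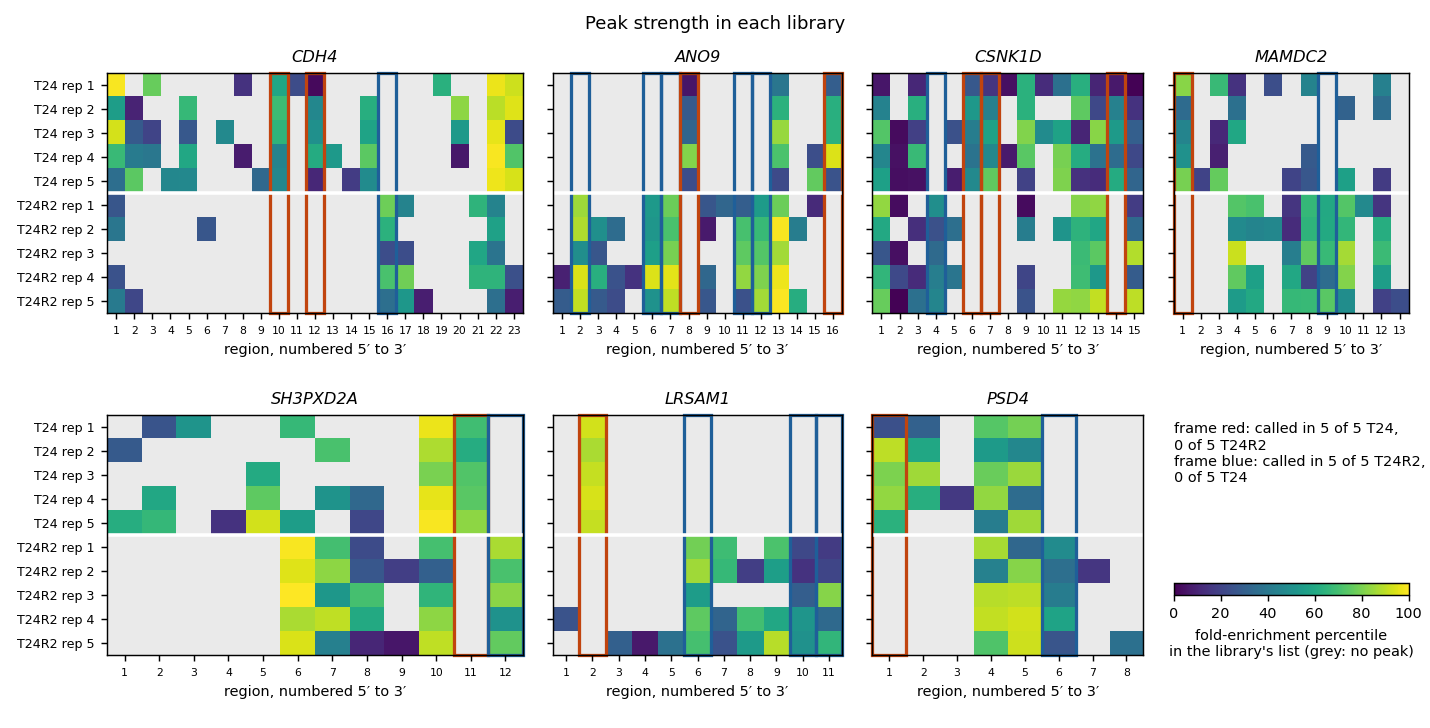
Percentile of each peak's fold enrichment in its own library's list, for every region of the 7 genes in order from 5′ to 3′ (columns) and every IP library (rows, T24 above T24R2), with grey where no peak was called. Red frames mark the 11 T24-only and blue frames the 13 T24R2-only regions, and LRSAM1 shows a single filled column in T24.

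**Figure D3:**
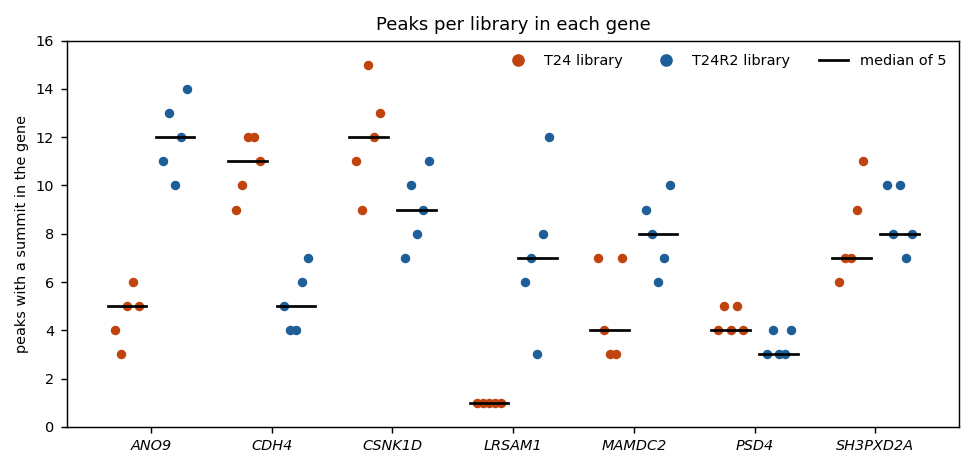
Number of peaks with a summit in each gene, each point 1 IP library and each bar the median of 5. The lines do not overlap in ANO9, CDH4 and LRSAM1, where medians are 5 against 12, 11 against 5, and 1 against 7, in genes chosen for peaks of one line.

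The opposing regions spread over most of the range of fold enrichment in their lists. Fold enrichment was 2.82 to 16.8 in T24-only regions and 4.39 to 17.8 in T24R2-only regions. The median percentile within the lists was 50.6 for the 11 T24-only regions, against 66.5 for all 457, and 64.4 for the 13 T24R2-only regions, against 57.9 for all 1320.

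**Figure D4:**
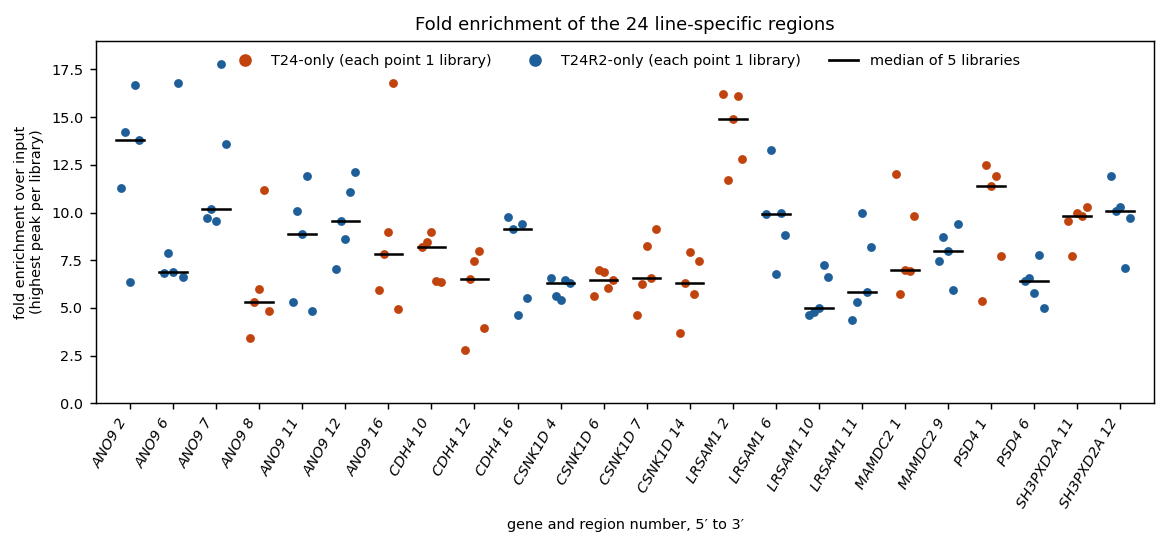
Fold enrichment of IP over input in the 24 line-specific regions, each point 1 library with the region (T24 red, T24R2 blue) and each bar the median of 5. LRSAM1 region 2 and ANO9 region 2 have the highest medians, and single libraries run far above the rest in ANO9 regions 6, 8 and 16.

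Several of the opposing regions were close to a peak of the other line. The nearest peak of the other line was at a median distance of 1280 bp from the 11 T24-only regions, against 33373 bp over all T24-only regions, and 3 of the 11 were within 500 bp (27.3% against 4.81%). For the 13 T24R2-only regions the median was 2630 bp, against 17052 bp, and 3 were within 500 bp (23.1% against 7.42%). Genes chosen for peaks of both lines must have such a neighbour, so these distances describe the genes and are not a finding about them.

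**Figure D5:**
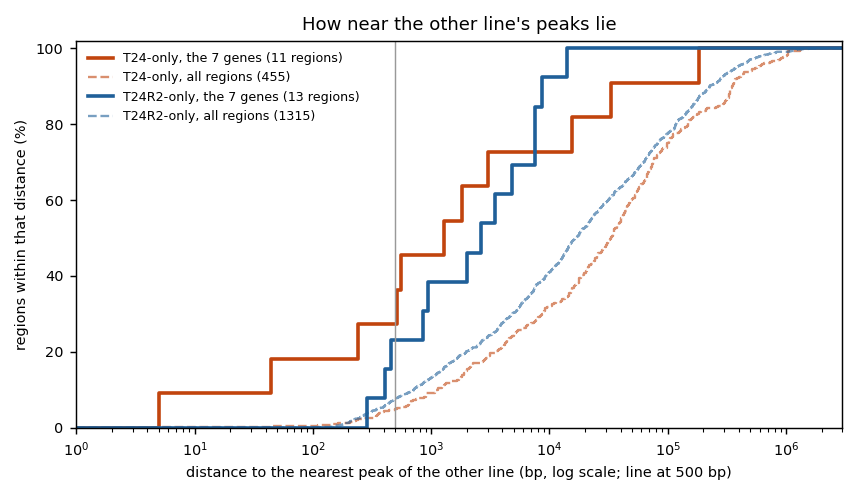
Cumulative share of line-specific regions (y axis, %) by distance to the nearest peak of the other line (x axis, bp, log scale), for the 7 genes (solid) and all regions on chromosomes with such a peak (dashed). Solid lines rise earlier, with medians of 1280 and 2630 bp, which the choice of genes imposes in part.

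The relatives and partners of the 7 genes held no line-specific region. Of 24 such genes, among them the anoctamins, the type I cadherins, the casein kinase 1 family, SH3PXD2B, the ARF6 exchange factors PSD, PSD2 and PSD3, and TSG101, 16 had 58 regions in all, of which 0 were T24-only, 0 were T24R2-only and 21 were called in all 10 libraries. The shares over all regions, 1.05% and 3.02%, correspond to few regions in a list of this size.

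Presence was compared between the lines by Fisher's exact test (two-sided, n = 5 each) across all 43676 regions. Of these, 4021 had an unadjusted p under 0.05, and 0 passed after Benjamini-Hochberg adjustment, where the smallest adjusted p was 0.195. With 5 libraries per line no Fisher p can be below 0.00794. The regions at that floor, 457 T24-only and 1320 T24R2-only, were too few for any to pass. The 0 therefore does not show that no region differs. When every list was cut to its 17203 peaks with the lowest q-values, the T24R2-only regions of the 7 genes fell from 13 to 5. The number of T24-only regions stayed at 11. Over all regions the counts after this cut were 556 T24R2-only and 497 T24-only. Of the 7 genes, 3 kept the opposing pattern after this cut, ANO9, LRSAM1 and SH3PXD2A, among 8 opposing genes in all. Joining regions closer than 500 bp kept it in CDH4 and LRSAM1, among 4 in all.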

How the data were processed

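MeRIP-seq peak lists of 10 IP libraries were analysed, grouped by sample title. Per the paper's methods and the submitters' processing notes, reads were aligned to hg38 with STAR 2.7.0 and GENCODE 39, uniquely mapped reads without duplicates were kept with SAMtools 1.10, and MACS2 3.0.0a6 called IP over input peaks per library, without model and with a fixed extension. The authors deposited, for each peak, a score derived from the q-value, a fold enrichment (ratio over local input), a −log10 p-value and a −log10 q-value, the lowest −log10 q being 2.0, and the regions merged over the 10 lists. Reads counted per peak were not analysed here, and depth is unknown.

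From these, a library had a region when 1 of its peaks overlapped it. Regions were placed by summit (start plus offset) on GENCODE 44 genes of the same build, and no peak ended past its chromosome. Percentiles are the share of a library's own list at or below a value, and the highest peak represents a library with several. The calls of presence and of line-specific regions were checked on simulated peak lists. Python 3.11.15, pandas 2.3.3 and scipy 1.17.1 were used. Members and lists were chosen with earlier results of these data known. The genes named are the 7 members, other genes with opposing regions, and 24 paralogs and partners counted as a list. Nothing in the labels states that replicates are separate cultures, so the Fisher p-values measure only the spread between these libraries. Alternatives were a −log10 q of at least 5 and 10, a fold of at least 4, equal list lengths, a cover of at least 50%, a looser rule, joined regions, whole regions inside the gene, exonic regions, a replicate block, each library left out, and 1 combination added after seeing the data. Some sequences under summits are not reported here.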

Additional observations from a re-analysis of the deposited data

Results flagged for a closer look

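Dixon's test at 5 libraries (critical value 0.71) set 1 library apart from the others of its line in 5 of 56 groups examined, where chance gives about 5%. All 5 were groups of fold-enrichment percentiles in the 7 genes. In ANO9 region 2, a T24R2-only region of intron 1, T24R2 replicate 3 was at percentile 49.6 and the others were at 85.3 to 94.5. In ANO9 region 6, also T24R2-only and in intron 1, T24R2 replicate 4 was at 94.6 and the others were at 50.8 to 56.6. In CSNK1D region 9, over intron 7 and exon 8, T24 replicate 5 was at 19.9 and the others were at 63.8 to 81.0. In MAMDC2 region 8, in intron 11, T24R2 replicate 4 was at 19.7 and the others were at 65.2 to 75.6. In PSD4 region 5, around the stop codon, T24R2 replicate 1 was at 33.3 and the others were at 81.9 to 93.2. All 5 libraries of the line had a peak in each of these regions, so the values change no count of presence.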

How the results depend on the processing

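The 7 genes held 11 T24-only and 13 T24R2-only regions, 7 of 12 genes with opposing regions, against 457 and 1320 line-specific regions over all regions. At a −log10 q of at least 5, 3 of the 7 genes (ANO9, LRSAM1 and SH3PXD2A) and 4 genes in all remained opposing. At 10 the counts were 2 and 4 regions, 0 of the 7 genes, 0 genes in all, and 171 and 640 over all regions. With equal list lengths, the 7 genes held 11 T24-only and 5 T24R2-only regions. Opposing genes were then 3 of the 7 and 8 in all. Over all regions the counts were then 497 T24-only and 556 T24R2-only. A cover of at least 50% gave 4 and 4 regions, 1 of the 7 genes (ANO9), 9 genes in all, and 203 T24-only over all regions. With at least 4 against at most 1 library, T24R2-only regions of the 7 genes rose to 20, genes in all to 83, and regions over all to 1090 and 3653. Joining regions closer than 500 bp left 5 and 8 regions, 2 of the 7 genes and 4 in all. Exonic regions alone, those with at least 1 summit in an exon, were 7 and 4, in 4 of the 7 genes (CSNK1D, LRSAM1, PSD4 and SH3PXD2A) and 4 in all. With equal list lengths and without T24R2 replicate 5, the longest list, a combination added after seeing the data, 4 of the 7 genes remained. Opposing genes in all were then 11, and T24R2-only regions over all were 674. All of these alternatives except the looser rule remove peaks, join regions or leave regions out by construction.

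Leaving out each library in turn gave 11 to 13 and 13 to 17 regions in the 7 genes, 7 of the 7 genes each time, 12 to 21 genes in all (21 without T24 replicate 1), and 472 to 567 and 1360 to 1676 regions over all. Dropping a library cannot remove a line-specific region, since the rule then asks only for the remaining libraries of its line. These runs could therefore only add regions, and no member gene could be lost. Of 117 alternative values, which include these runs, 86 stayed within 1.5 times the reported one and 31 did not. Libraries with the same replicate number did not resemble each other (correlations of presence −0.019 to 0.0451, against −0.053 to 0.0367 for other numbers), so the numbers are only names. With a replicate block, an exact McNemar test by number, 0 regions had an unadjusted p under 0.05 in place of 4021, since 5 pairs allow no p below 0.0625. Unknown depth limits every absence: a region without a peak may hold signal under the caller's threshold, and the T24R2 lists are mostly longer.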
